A study of Mus musculus with 6 samples.

Results

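The 9 genes described here encode the signalling core of the CD8+ T cell receptor: the CD3 subunits Cd3d, Cd3e and Cd3g and the zeta chain Cd247, the coreceptor chains Cd8a and Cd8b1, the kinases Lck and Zap70, and the adaptor Lat. They were chosen by name, for their place in the pathway, and were found by the gene name in the file of each library. All 9 were found among the 54446 genes of the files, and all 9 were among the 14991 genes that were tested, those whose mean over the 6 libraries reached 1 FPKM.

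The antigen receptor of a T cell has no signalling activity of its own, and it relies on the CD3 and zeta chains, whose cytoplasmic tails carry tyrosine motifs. CD8 binds class I major histocompatibility complex molecules outside the cell and holds Lck inside it. Lck phosphorylates the CD3 and zeta tails, ZAP-70 docks there and is activated by Lck, and ZAP-70 phosphorylates the membrane adaptor LAT, on which the enzymes of calcium and Ras signalling assemble.

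RNA was sequenced from 6 libraries of CD8+ T cells that were purified by negative selection from spleens of C57BL/6 mice of 8 weeks. Unstimulated cells were fresh cells. Control cells were stimulated for 72 h without magnets, with antibodies against CD3 and CD28 that were bound to the plate. SMF-treated cells were stimulated in the same way for 72 h on permanent magnets that gave a static magnetic field (SMF) of 0.3 T from the start of stimulation. Each group had 2 libraries of total RNA, and all groups were of the same strain, without transgene or deletion. The stimulating antibody itself binds the CD3 complex, so both stimulated groups had the receptor engaged directly. Nothing in the labels says that the replicates came from separate mice, so p-values measure the spread between libraries, which may be technical. Values are given below for replicate 1 and then replicate 2. FPKM, the number of fragments scaled to transcript length and to the mapped fragments of the library, was summed over the transcripts of a gene.

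Several features of the libraries bear on every value below. Depth, the deposited coverage times the transcript length, was 67.4 and 132 Mb in unstimulated cells, 64.4 and 172 Mb in control cells and 259 and 227 Mb in SMF-treated cells. The folder dates in the file headers fell in June 2017 for replicate 1 of the unstimulated and control cells, in November 2017 for replicate 2 of both, and in October 2018 for both SMF libraries. The control cells could therefore be compared with the unstimulated cells within a folder month. For the SMF-treated cells folder month and field coincide and cannot be told apart. Only the year and month of a folder were read, and what a folder stands for was not given. Of the FPKM summed over all genes, protein-coding genes held 69.2% and 68.7% in SMF-treated cells and 49.1% to 50.5% in the other 4 libraries. Internal exons of at most 200 bases, in which a read often crosses a splice junction, took 31.5% and 30.2% of all coverage in the SMF libraries, 13.9% and 15.0% in the unstimulated libraries and 15.8% and 18.4% in the control libraries.

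The strand of the reads was examined as well, because the authors' software was run in a stranded mode. For 12 single-exon genes of more than 200 bases that lie wholly within an exon of a coding gene on the other strand, the contained gene was listed with a higher coverage than the exon facing it in 8 or 9 of 12 pairs in every library. The median coverage of the contained genes was 8.12 and 12.4 reads per base in unstimulated cells against 0.691 and 1.93 for the exons that face them. It was 4.09 and 17.2 against 0.986 and 3.04 in control cells, and 11.4 and 13.3 against 5.41 and 5.33 in SMF-treated cells. Near the members, Gm48719, an antisense transcript of 361 exon bases that faces exon 8 of Cd3e, was listed at 2005 and 2664 FPKM in unstimulated cells, 1705 and 2317 in control cells and 959 and 709 in SMF-treated cells, far above the level of Cd3e itself. The strand setting may therefore be opposite to the strand that the kit keeps, which the files used here do not settle. Were it opposite, reads of a gene could be listed for the other strand, and the FPKM of each member, not only of those with an antisense partner, would hold part of its reads. How much these patterns contribute to the differences between groups was not tested. Each comparison of the members is therefore given also on the coverage of short internal exons alone (at most 200 bases and free of exons of other genes, per kilobase and per Mb covered in such exons), a measure that was added after the data had been seen.

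The labels were checked first. Of the lineage markers, Cd8a and Cd8b1 were at 35.5 FPKM or more in every library, with their values given below, while Cd4 was listed at 2.05 and 4.68 FPKM in unstimulated cells, 0 and 2.18 in control cells and 0 in both SMF libraries. Activation genes were examined next. Il2ra, the alpha chain of the interleukin 2 receptor, was at 0.708 and 0.894 FPKM in unstimulated cells, 52.4 and 59.2 in control cells and 86.5 and 113 in SMF-treated cells, and the cytotoxic protease gene Gzmb was at 10.2 and 11.7, 1494 and 1565, and 2282 and 4283 FPKM. Of the 8 activation genes listed, among them Il2ra, Cd69, Cd44, Mki67, Gzmb, Ccr7 and Il7r, 5 were called higher and 2 lower in each stimulated group than in unstimulated cells (24.8% and 37.2% of all genes tested were called in these comparisons), where a call means a fold change of at least 2 with an unadjusted p of at most 0.05. The remaining one, the early activation marker Cd69, was called in neither, at 62.1 and 79.4 FPKM in unstimulated cells, 44.4 and 47.6 in control cells, below both fresh libraries, and 78.0 and 83.6 in SMF-treated cells. Trdc, the T cell receptor delta constant gene and a marker of gamma-delta T cells, was at 8.52 and 8.17 FPKM in unstimulated cells and at 0.856 to 2.20 FPKM in the 4 stimulated libraries, and was called lower in both stimulated groups.

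Markers of other spleen cells differed between fresh and stimulated libraries for some of the lists. All 7 B cell markers were called lower in both stimulated groups. They summed to 311 and 289 FPKM in unstimulated cells, 48.2 and 45.4 in control cells and 73.4 and 67.8 in SMF-treated cells, with Ighm the most abundant. The 6 matched myeloid markers of 7 summed to 140.4 and 161 FPKM, 47.0 and 53.8, and 47.5 and 51.4 FPKM, and Lyz2 went from 42.4 and 74.0 FPKM to a listing at 0 in every stimulated library. Of these 6, 4 were called lower in control and 3 in SMF-treated cells than in fresh cells. Dendritic cell markers summed to 14.6 and 23.1 FPKM, 2.56 and 3.998, and 0.975 and 0.448 FPKM, and natural killer markers to 44.7 and 20.4, 10.3 and 5.73, and 2.97 and 5.26 FPKM. CD4 T cell markers summed to 31.2 and 14.5, 12.8 and 22.8, and 12.8 and 13.5 FPKM, with Foxp3 the most abundant in each library, and the matched erythroid markers to 18.3 and 19.1, 5.21 and 7.16, and 10.1 and 1.51 FPKM. In control cells 1 of 3 dendritic, 1 of 3 natural killer, 1 of 4 CD4 T cell and 0 of 1 erythroid markers tested were called, each lower, and in SMF-treated cells 3, 2, 2 and 1. Of all genes, 12.6% were called lower in control and 14.8% in SMF-treated cells. The sums of the CD4 T cell markers overlapped between fresh and control cells. Natural killer cells are known to express Cd247, Lck, Zap70 and Lat as well. The part of these cells in the differences from unstimulated cells was not tested. In bulk RNA, fewer cells of a type and less RNA per cell cannot be told apart.

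In fresh cells the levels of the 9 genes spanned about an order of magnitude. By mean FPKM of the unstimulated libraries the order was Cd8b1, Cd247, Lck, Cd3g, Cd8a, Cd3e, Lat, Cd3d and Zap70. The libraries of Cd8b1 overlapped those of Cd247, and those of Cd3g overlapped those of Cd8a, whereas the other neighbours in this order did not overlap. In control cells the order was Cd247, Lck, Cd3g, Cd8b1, Cd3e, Lat, Cd3d, Cd8a and Zap70, where the neighbours Cd247 and Lck, Lck and Cd3g, and Cd3e and Lat did not overlap and the others did. In SMF-treated cells Cd8a came first, followed by Cd3g, Cd247, Lck, Cd3d, Lat, Cd8b1, Cd3e and Zap70, and here Lat stood apart from both its neighbours and Zap70 from Cd3e, while the other neighbours overlapped. Zap70 was the lowest of the 9 in all 3 groups, and Cd8a moved from the eighth place in control cells to the first in SMF-treated cells. The summed FPKM of the 9 genes was 984 and 1119 in unstimulated cells, 633 and 926 in control cells and 1234 and 1062 in SMF-treated cells, so the control libraries were the lowest. For 3 members (Cd3d, Cd8a and Lat) both control libraries were below and both SMF libraries above both unstimulated ones, an arrangement that 2.09% of all genes tested had.

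**Figure D1:**
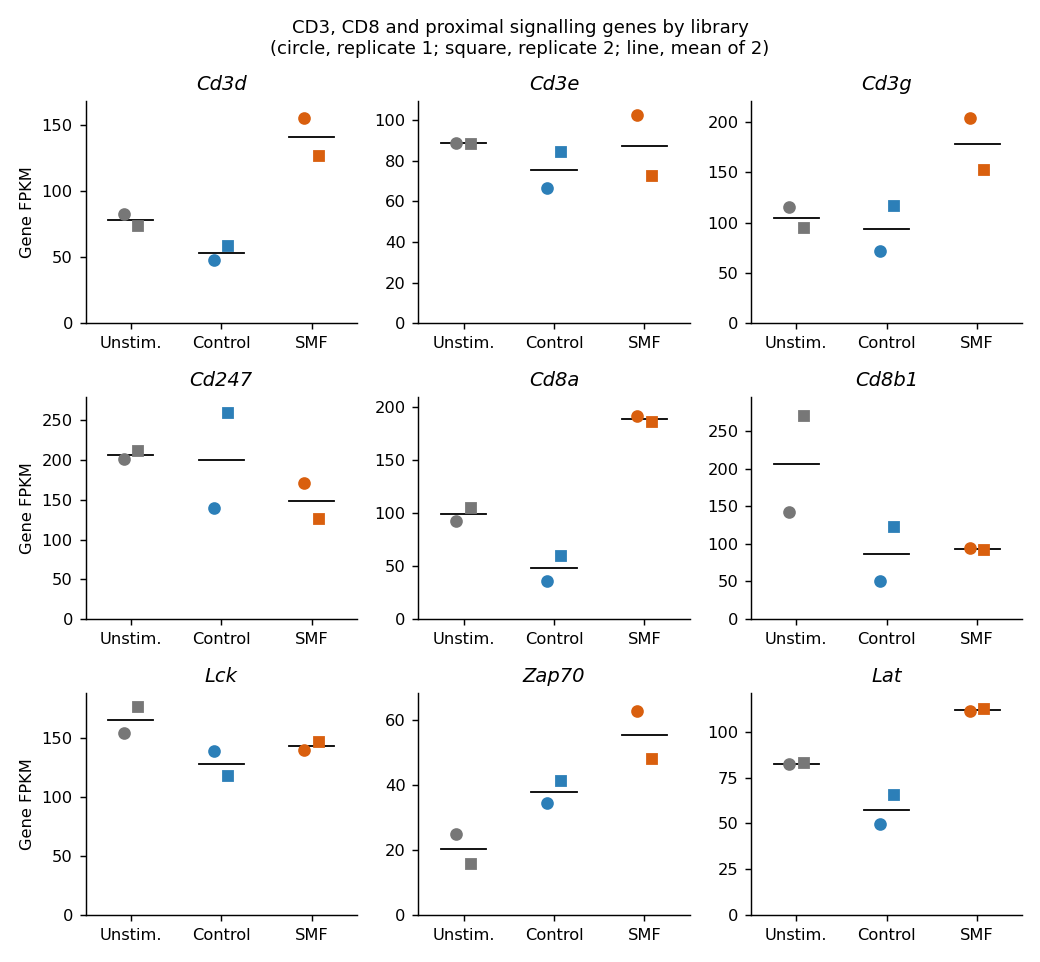
Gene FPKM (vertical axis, linear, from 0) of the 9 genes in the 6 libraries, with circles for replicate 1, squares for replicate 2 and a line at the mean of 2. Cd3d, Cd8a and Lat have both control libraries below and both SMF libraries above both unstimulated libraries, and Zap70 is lowest in unstimulated and highest in SMF-treated cells, without overlap between the groups.

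The coreceptor genes lie side by side on the plus strand of chromosome 6 (GRCm38), Cd8b1 at chr6:71322788-71337494 and Cd8a at chr6:71373427-71379173. Cd8a encodes the alpha chain, which forms both the CD8 alpha-alpha homodimer and, with the beta chain, the alpha-beta heterodimer of conventional cytotoxic cells. It was at 92.5 and 105 FPKM in unstimulated cells, 35.5 and 60.0 FPKM in control cells and 192 and 186 FPKM in SMF-treated cells. The 3 groups did not overlap, with the control libraries lowest and the SMF libraries highest. Cd8b1, the beta chain gene, was at 143 and 271 FPKM in unstimulated cells, 50.3 and 123 FPKM in control cells and 94.6 and 91.9 FPKM in SMF-treated cells. Both stimulated groups lay below the unstimulated cells, and the SMF libraries fell between the 2 control libraries.

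The 250 bases before the RefSeq start of Cd8a are shown because Cd8a is the member with the largest difference between the stimulated groups. RefSeq promoters (GRCm38.p6) were matched for 8 of the 9 members, 11 promoters in all. They were searched on both strands for letters known from T cell gene regulation: the RUNX core TGTGGT, found in 14.05% of 32851 mouse promoters of this length, the ETS core AGGAAG (29.5%), the GATA core AGATAA (9.99%), the E-box CAGGTG (17.2%) and TATAAA (12.4%). Matches on either strand are in capitals here and below, and a match is a description, not a binding site. No match overlapped another in the sequences printed, and the Cd8a sequence (plus strand) holds none.
Cd8a chr6:71373177-71373426: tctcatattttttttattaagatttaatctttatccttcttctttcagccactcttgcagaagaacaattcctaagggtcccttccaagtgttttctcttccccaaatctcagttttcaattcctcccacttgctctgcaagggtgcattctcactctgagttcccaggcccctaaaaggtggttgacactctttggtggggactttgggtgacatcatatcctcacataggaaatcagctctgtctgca

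Within each library, Cd8a stood in a different proportion to Cd8b1 in the SMF libraries. The ratio of Cd8a to Cd8b1 FPKM was 0.649 and 0.387 in unstimulated cells, 0.706 and 0.489 in control cells and 2.03 and 2.03 in SMF-treated cells. Unstimulated and control libraries overlapped, and both SMF libraries were above all 4. The ratio of geometric means between SMF-treated and control cells was 1.79 on the log2 scale (exact permutation test, two-sided, p = 0.333, the smallest p that 2 libraries against 2 allow; 15 such ratio tests were made). Both SMF libraries were above the other 4 on protein-coding transcripts alone too, with 1.51 and 1.83 in SMF-treated cells against 0.267 to 0.571 in the others. On short internal exons the ratio was 0.788 and 0.430 in unstimulated cells, 0.566 and 0.568 in control cells and 3.82 and 2.70 in SMF-treated cells. On that measure the level of Cd8a was 1912 and 1999, 440.0 and 1079.8, and 1994 and 1823, whereas the level of Cd8b1 was 2427 and 4645, 778 and 1902, and 522 and 676. By short exons the SMF libraries thus overlapped the unstimulated ones for Cd8a and were the lowest for Cd8b1.

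Cd8a also carries an alternatively spliced cytoplasmic exon, whose skipping gives a form with a short tail that cannot hold Lck. Coverage of this exon, exon 4 with 31 bases, over that of exon 3 was 0.494 and 0.550 in unstimulated cells, 0.427 and 0.581 in control cells and 0.906 and 0.764 in SMF-treated cells. Both SMF libraries were above the other 4, and unstimulated and control libraries overlapped (exact permutation test, SMF-treated against control cells, p = 0.333, again the smallest possible; Benjamini-Hochberg adjusted p = 0.455 over the 15 tests). The transcript with 5 exons took 20.2% and 26.4% of the FPKM of the 5-exon and 4-exon transcripts in unstimulated cells, 23.7% and 39.3% in control cells and 43.3% and 40.4% in SMF-treated cells, so by this estimate control replicate 2 lay close to the SMF libraries.

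**Figure D2:**
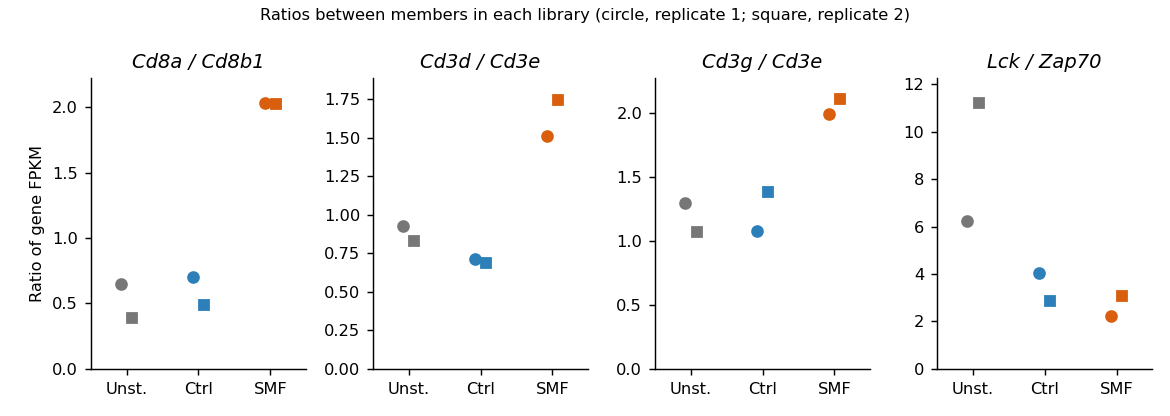
Ratios between members within each library (vertical axes, linear, no unit; circle, replicate 1; square, replicate 2). The Cd8a to Cd8b1, Cd3d to Cd3e and Cd3g to Cd3e ratios of both SMF libraries lie above those of the other 4 libraries, and the Lck to Zap70 ratio of FPKM is highest in unstimulated cells, whereas by short exons the unstimulated and SMF libraries overlap.

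The 3 CD3 genes form a cluster on chromosome 9, with Cd3g (chr9:44969572-44980431, minus strand) and Cd3d (chr9:44981786-44987339, plus strand) starting close to each other in opposite directions and Cd3e (chr9:44998740-45009627, minus strand) beyond Cd3d. Cd3d, whose product pairs with CD3 epsilon in the receptor, was at 82.5 and 73.4 FPKM in unstimulated cells, 47.5 and 58.0 FPKM in control cells and 155 and 126 FPKM in SMF-treated cells. As with Cd8a, the groups did not overlap, and control cells were lowest and SMF-treated cells highest. Cd3g, whose product forms the other pair with CD3 epsilon, was at 115 and 94.6 FPKM, 71.3 and 116 FPKM, and 204 and 153 FPKM. Its unstimulated and control libraries overlapped, and both SMF libraries were above them. Cd3e, the subunit shared by both pairs, was at 88.7 and 88.4 FPKM, 66.3 and 84.4 FPKM, and 102 and 72.3 FPKM, and its SMF libraries lay on both sides of the unstimulated ones.

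The Cd3d promoter is shown for its divergent position and because Cd3d was the second member called between the stimulated groups. Printed on the plus strand, it holds an ETS core and an E-box in their reverse complements, CTTCCT and CACCTG.
Cd3d chr9:44981536-44981785: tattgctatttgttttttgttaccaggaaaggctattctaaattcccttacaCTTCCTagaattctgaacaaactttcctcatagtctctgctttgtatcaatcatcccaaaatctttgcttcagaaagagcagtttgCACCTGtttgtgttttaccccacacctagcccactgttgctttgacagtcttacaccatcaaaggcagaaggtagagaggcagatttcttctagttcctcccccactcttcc

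The proportions among the CD3 genes differed in the same libraries. The ratio of Cd3d to Cd3e FPKM was 0.930 and 0.831 in unstimulated cells, 0.716 and 0.687 in control cells and 1.51 and 1.74 in SMF-treated cells, 3 groups without overlap. Cd3e held 31.0% and 34.5% of the FPKM of the 3 genes in unstimulated cells, 35.8% and 32.6% in control cells and 22.2% and 20.6% in SMF-treated cells. The ratio of Cd3g to Cd3e was 1.297 and 1.07, 1.07 and 1.38, and 1.99 and 2.11. For both ratios the SMF libraries were above the other 4, with the exact permutation p at 0.333. On short internal exons the separation remained, with Cd3d to Cd3e at 2.45 and 2.75 in SMF-treated cells against 0.698 to 0.931 in the others and Cd3g to Cd3e at 1.503 and 1.94 against 0.784 to 0.948. The levels behind it were different there: Cd3e was at 1162 and 961 in unstimulated cells, 820.0 and 977 in control cells and 498 and 390.5 in SMF-treated cells, the lowest of the 3 groups. Cd3d by short exons was at 811 and 895, 602 and 779, and 1222 and 1075, so its SMF libraries remained the highest. Cd3g by short exons was at 965 and 854, 643 and 926, and 748 and 759. Its SMF libraries were thus below the unstimulated ones and between the control ones, unlike by FPKM. The antisense transcript Gm48719, which faces Cd3e, was itself lower in the SMF libraries, as given above.

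Cd247 (chr1:165788681-165877277, plus strand) encodes the zeta chain, which carries more signalling motifs than any other receptor subunit. It was at 201 and 211 FPKM in unstimulated cells, 139.7 and 259.6 FPKM in control cells and 171 and 126 FPKM in SMF-treated cells. The control libraries lay on both sides of the unstimulated ones, and both SMF libraries were below the unstimulated ones. This gene could be measured less well than the others. Of its 23 annotated exons, 8 overlap Pou2f1 on the other strand, and these held 85.5% and 87.7% of the covered bases of Cd247 in unstimulated cells, 82.9% and 93.1% in control cells and 86.2% and 55.8% in SMF-treated cells. Its 2 of 9 transcripts without an exon that overlaps Pou2f1 were estimated together at 32.0 and 38.8, 26.9 and 10.5, and 33.1 and 60.4 FPKM, with the control libraries lowest and the others overlapping. On short internal exons Cd247 was at 362 and 356 in unstimulated cells, 334 and 279 in control cells and 80.7 and 226 in SMF-treated cells.

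Lck (chr4:129548344-129573641, minus strand) encodes the kinase that starts the cascade. It was at 154 and 177 FPKM in unstimulated cells, 139 and 118 FPKM in control cells and 140.4 and 147 FPKM in SMF-treated cells. Both stimulated groups were below the unstimulated one, with the SMF libraries just above the control libraries. On protein-coding transcripts alone Lck was at 74.8 and 111 FPKM, 31.3 and 76.1 FPKM, and 120 and 130 FPKM, where the SMF libraries lay above the unstimulated ones. Retained-intron transcripts took part of the estimate: protein-coding transcripts held 48.4% and 63.0% of the Lck FPKM in unstimulated cells, 22.5% and 64.5% in control cells and 85.3% and 88.3% in SMF-treated cells. On short internal exons Lck was at 1084 and 1379.8 in unstimulated cells, 487 and 615 in control cells and 583 and 653 in SMF-treated cells, a wider gap between fresh and stimulated cells than by FPKM.

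Lck is known for its pair of promoters, a distal one used in mature T cells and a proximal one used mostly in the thymus, and both are printed because the first exons of both were measured. Coverage of the distal first exon (chr4:129573515-129573641, 127 bases) was 9.24 and 7.76 reads per base in unstimulated cells, 7.04 and 16.5 in control cells and 31.0 and 24.3 in SMF-treated cells. Coverage of the proximal first exons (chr4:129558081-129558391 and chr4:129558288-129558372) was 1.82 and 2.61, 1.48 and 0.571, and 0.891 and 2.22 reads per base. The distal exon thus took 83.5% and 74.8% of first-exon coverage in unstimulated cells, 82.6% and 96.7% in control cells and 97.2% and 91.7% in SMF-treated cells, and it was the larger in all 6 libraries. The estimated FPKM of whole transcripts did not follow the first exons: those from the proximal start were given 9.60 and 59.4, 19.9 and 29.5, and 54.9 and 73.5 FPKM, against 65.2 and 52.1, 11.4 and 46.6, and 64.9 and 56.0 FPKM from the distal start. Both sequences are on the minus strand, and the distal one holds a RUNX core that the proximal one lacks, whereas only the proximal one holds an E-box.
Lck distal chr4:129573642-129573891: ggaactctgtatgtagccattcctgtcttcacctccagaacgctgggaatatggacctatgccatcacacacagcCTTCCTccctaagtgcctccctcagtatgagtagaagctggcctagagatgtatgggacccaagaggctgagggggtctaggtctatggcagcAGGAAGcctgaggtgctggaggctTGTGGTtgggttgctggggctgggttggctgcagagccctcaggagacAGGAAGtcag
Lck proximal chr4:129558373-129558622: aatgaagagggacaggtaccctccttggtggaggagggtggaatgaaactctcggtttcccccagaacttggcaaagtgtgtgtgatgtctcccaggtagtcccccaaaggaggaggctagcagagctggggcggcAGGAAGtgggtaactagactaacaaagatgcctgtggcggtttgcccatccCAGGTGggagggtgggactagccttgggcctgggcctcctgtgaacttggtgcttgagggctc

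Zap70 (chr1:36761798-36782818, plus strand) encodes the kinase that binds the phosphorylated CD3 and zeta tails. It was at 24.8 and 15.8 FPKM in unstimulated cells, 34.5 and 41.3 FPKM in control cells and 62.8 and 47.9 FPKM in SMF-treated cells, and was the only member higher in control than in fresh cells without overlap. The estimates for its transcripts differed between the groups. The full-length transcript was estimated at 19.1 and 12.4 FPKM, 2.83 and 10.5 FPKM, and 25.7 and 15.3 FPKM, so it was lower in control than in unstimulated cells. A transcript of 6 exons that starts inside the gene at position 36778984, annotated as a retained intron, was estimated at 0 and 0.679 FPKM in unstimulated cells, 31.7 and 26.5 FPKM in control cells and 27.5 and 26.9 FPKM in SMF-treated cells. It was near 0 in fresh cells and at a like level in all 4 stimulated libraries.

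The exon coverage was examined next. The mean coverage of exons 9 to 13 of the full-length transcript, over that of exons 1 to 7, was 2.86 and 1.55 times in unstimulated cells, 29.9 and 4.46 times in control cells and 10.04 and 4.55 times in SMF-treated cells. All 4 stimulated libraries had more of their coverage in the last exons than the unstimulated ones. The first exon of the internal transcript, 329 bases, carried little of it: 0 and 0.205 reads per base, 0.157 and 1.32, and 2.58 and 0.959, whereas the next exon, which the full-length transcript has too, was given 0 and 0.0262, 2.22 and 7.06, and 10.2 and 9.05 reads per base in the internal transcript. In the 4 stimulated libraries this first exon was thus below the next one. Exons 1 to 7 of the full-length transcript had means of 0.991 and 1.83 reads per base in unstimulated cells. The means were 0.128 and 2.24 in control cells and 2.44 and 3.38 in SMF-treated cells. Reads per base are not scaled to depth here, and depth was highest in the SMF libraries. The first exon of the internal transcript is shared in part with the full-length one, and where transcription started was not tested. Over 3019 genes the median ratio of 3′ to 5′ coverage was 0.979 and 1.14, 0.918 and 0.933, and 0.903 and 0.954, so the libraries as a whole did not share this slope. By short internal exons, which leave out the last exon, Zap70 was at 191 and 144, 179 and 147, and 117 and 89.8, with neither stimulated group above the fresh cells. The ratio of Lck to Zap70 was 6.23 and 11.2 by FPKM in unstimulated cells, 4.02 and 2.85 in control cells and 2.24 and 3.06 in SMF-treated cells. By short exons it was 5.67 and 9.58, 2.72 and 4.17, and 4.96 and 7.27, so the unstimulated and SMF libraries overlapped there.

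**Figure D3:**
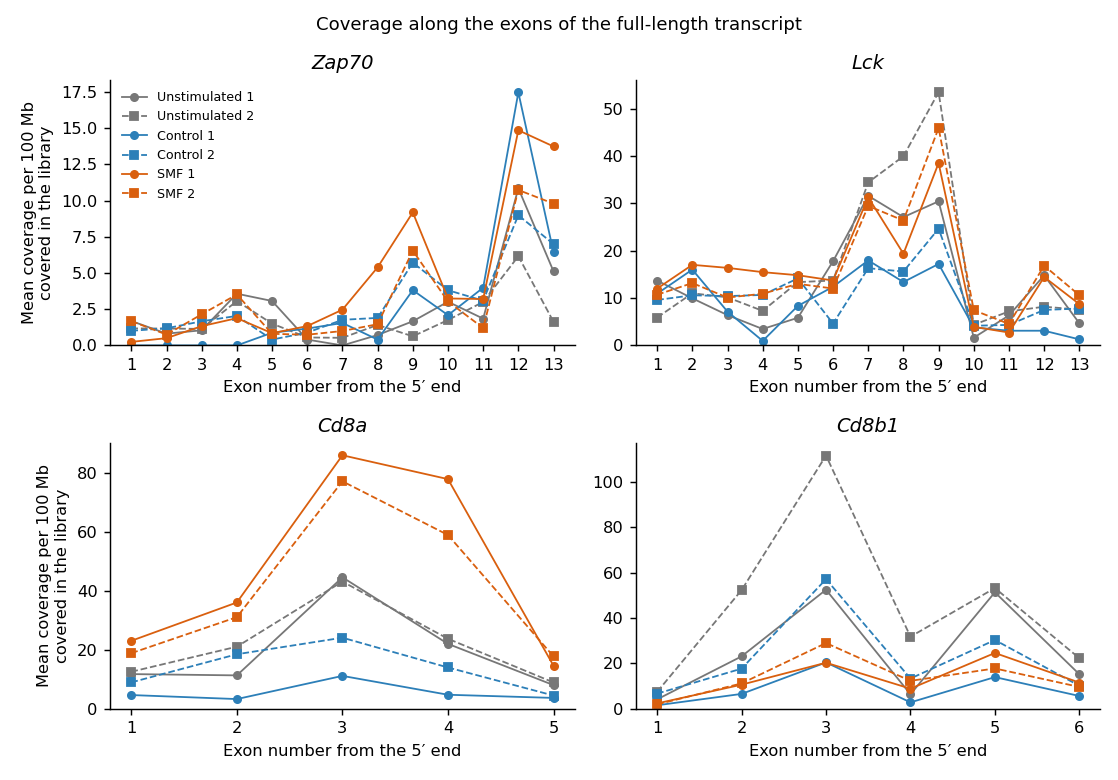
Mean exon coverage scaled to the Mb covered in each library (vertical axes, linear, unit on the axis) along the full-length transcript of each gene shown. Exons are numbered from the 5′ end, with 1 line for each of the 6 libraries. In Zap70 the stimulated libraries rise towards the last exons, and in Cd8a the short exon 4 is higher in proportion to exon 3 in the SMF libraries than in the others.

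Lat (chr7:126363824-126369570, minus strand) encodes the membrane adaptor below ZAP-70. It was at 82.6 and 82.9 FPKM in unstimulated cells, 49.5 and 65.6 FPKM in control cells and 111 and 113 FPKM in SMF-treated cells. The groups did not overlap, and their order was that of Cd8a and Cd3d. On protein-coding transcripts alone Lat was at 16.2 and 54.1, 27.3 and 40.5, and 88.5 and 57.6 FPKM, with the control libraries between the unstimulated ones. On short internal exons Lat was at 684 and 683 in unstimulated cells, 326 and 523 in control cells and 561 and 466 in SMF-treated cells, where the SMF libraries fell below the unstimulated ones and overlapped the control ones.

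Activation in culture without magnets was examined by comparing control with unstimulated cells. Cd8a fell by 1.08 on the log2 scale of FPKM + 1 (SE 0.31) and Cd8b1 by 1.31 (SE 0.50). Both met the rule for a call, and their Benjamini-Hochberg adjusted p in limma was 0.0884 and 0.157. Of the 9 members, 2 were called lower and 0 higher, beside 24.8% of all genes tested called in this comparison (12.6% lower and 12.3% higher), and no member had an adjusted p under 0.05, beside 8.48% of all genes. Of the members, 3 had an unadjusted p under 0.05, beside 4040 of the 14991 genes tested. Members without overlap numbered 6 lower (Cd3d, Cd3e, Cd8a, Cd8b1, Lck and Lat) and 1 higher (Zap70), beside 26.6% and 24.8% of all genes. Both coreceptor genes fell between the libraries of each folder month, Cd8a with -1.36 and -0.80 and Cd8b1 with -1.49 and -1.14. Zap70 changed by 0.90 (SE 0.35, adjusted p = 0.168), below the fold required. The values for Cd3d and Lat were -0.56 (SE 0.26, adjusted p = 0.241) and -0.53 (SE 0.26, adjusted p = 0.258), and the median over the 9 members was -0.37, beside -0.05 over all genes. Leaving out unstimulated replicate 1, unstimulated replicate 2 or control replicate 1 ended both calls, in fits in which 1 group was left with 1 library. Cd8a was then at -1.17, -0.99 and -0.71 and Cd8b1 at -1.77, -0.85 and -0.68, so without unstimulated replicate 1 the differences were as large as with it. By short internal exons both were called again, at -1.50 for Cd8a and -1.46 for Cd8b1, and Lck was called too, at -1.16 (limma adjusted p = 0.0969). These were 3 of 9 lower, beside 18.1% of the genes tested on that measure called and 8.24% called lower.

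The SMF-treated cells were compared with the same unstimulated cells. Zap70 rose by 1.43 (SE 0.35, limma with Benjamini-Hochberg adjusted p = 0.0342) and was the only call, 1 of 9 higher and 0 lower, where 37.2% of all genes were called (22.4% higher and 14.8% lower). It was also the only member with an adjusted p under 0.05, beside 23.6% of all genes. Both its SMF libraries were above both unstimulated ones, but the value turned to -0.69 by short internal exons and was 0.36 on protein-coding transcripts. Cd8a and Cd3d stood at 0.93 (SE 0.31, adjusted p = 0.0771) and 0.83 (SE 0.26, adjusted p = 0.0661), below the fold required, and Cd3g at 0.75. Cd8b1 was at -1.07 (SE 0.50, adjusted p = 0.167). In all, 5 members lay higher without overlap (Cd3d, Cd3g, Cd8a, Zap70 and Lat) and 3 lower (Cd247, Cd8b1 and Lck), beside 39.7% and 26.0% of all genes, and the median of the members was 0.43 beside 0.27 over all genes. Short internal exons gave 3 calls among the members, all lower: Cd8b1 at -2.50, Cd247 at -1.40 and Cd3e at -1.26, with Cd8a at -0.036. On that measure 22.8% of the genes tested were called and 9.1% were called lower. The median of the members was -0.69 there, beside 0.30 over all genes. After rescaling to the same sum over protein-coding genes the median of the members was -0.048, beside -0.089 over all genes.

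SMF-treated cells were then compared with control cells, and this comparison shares its libraries with those above. Folder month and field coincide here and cannot be told apart. Cd8a rose by 2.01 (SE 0.31) and Cd3d by 1.40 (SE 0.26), each with a Benjamini-Hochberg adjusted p of 0.136 in limma. These were 2 calls of 9, both higher, beside 18.2% of all genes called (12.5% higher and 5.72% lower). Across all genes 4 (0.0267%) had an adjusted p under 0.05, and none was a member. By FPKM a value above 0 was found for 8 of 9 members, beside 60.2% of all genes. Lat was at 0.96 (SE 0.26, adjusted p = 0.160) and Cd3g at 0.95 (SE 0.33, adjusted p = 0.198), just below the fold required. By short internal exons the SMF and control libraries overlapped for both genes. Zap70, Cd8b1, Cd3e and Lck were at 0.53, 0.24, 0.20 and 0.16, and Cd247 was at -0.37, none of them past the p of a call. Without overlap were 6 members higher (Cd3d, Cd3g, Cd8a, Lck, Zap70 and Lat) and 0 lower, beside 37.4% and 17.4% of all genes, and the median of the members was 0.53 beside 0.32 over all genes. In the fit as a whole, 1868 genes were called higher and 857 lower, and shifting the libraries to the same median, which moved the median of all genes from 0.32 to -0.02, gave 877 and 1441. Rescaling to the same sum over protein-coding genes gave 931 and 1307. After the shift, Cd3e, Cd8b1 and Lck turned to -0.14, -0.098 and -0.18. The call of Cd8a was kept under every alternative listed in the closing section, with 1.47 by short internal exons (limma adjusted p = 0.616). The call of Cd3d was lost there, at 0.74, and Cd3e was called lower, at -1.02 (adjusted p = 0.521), which made 2 of 9 members called beside 5.98% of the genes tested on that measure. Cd3g, Cd8b1 and Zap70 also turned below 0 on short internal exons, with the values in the closing section, and Cd247 stayed below 0. The median of the members was then -0.035, beside 0.18 over all genes.

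**Figure D4:**
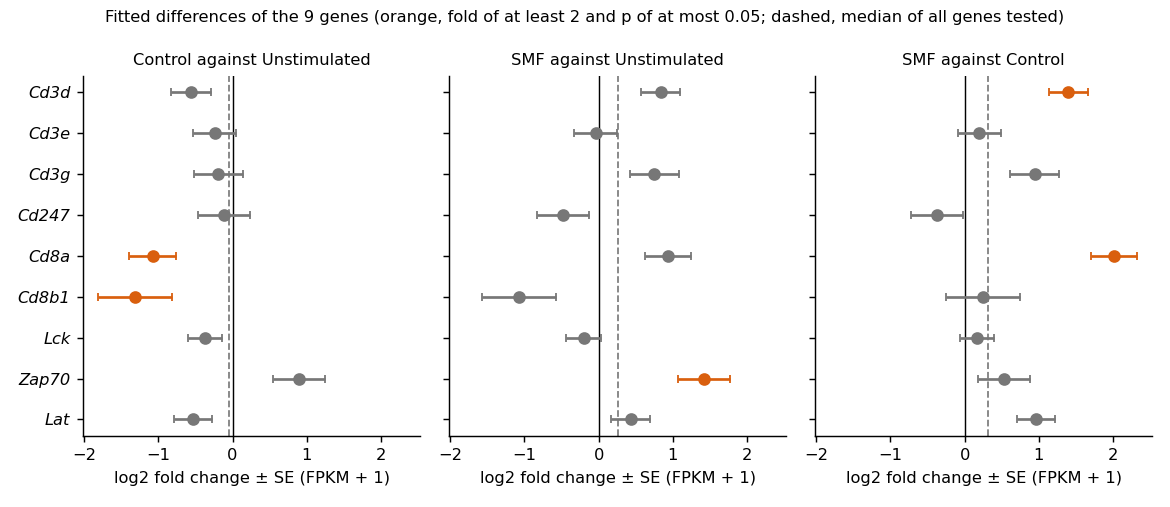
Fitted log2 fold changes of FPKM + 1 (horizontal axes) with standard errors for the 9 genes in the 3 comparisons, orange where the fold was at least 2 and the unadjusted p at most 0.05, with the median of all genes tested as a dashed line. Cd8a and Cd8b1 are the calls in control against unstimulated cells, Zap70 in SMF-treated against unstimulated cells, and Cd8a and Cd3d in SMF-treated against control cells.

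The antigen receptor itself, which the CD3 chains carry to the surface, was read from its constant genes. Trac, the alpha constant gene, was at 136 and 152 FPKM in unstimulated cells, 78.3 and 125 FPKM in control cells and 202 and 225 FPKM in SMF-treated cells. Trbc2, a beta constant gene, was at 104 and 123, 92.4 and 93.4, and 329 and 310.1 FPKM, and Trbc1 was at 85.1 and 101, 67.6 and 91.6, and 176 and 151 FPKM. For all 3, both SMF libraries were above the other 4, and against control cells 37.4% of all genes were higher without overlap. In SMF-treated against control cells, Trbc2 was called at 1.77 (limma adjusted p = 0.125), Trac at 1.10 (adjusted p = 0.159) and Trbc1 at 1.04 (adjusted p = 0.155). With Trdc, which overlapped between these groups and was at 0.0097, 3 of 4 constant genes were called higher, beside 12.5% of all genes. After the shift to the same median, Trbc2 alone of these was called, at 1.43, with Trac at 0.76 and Trbc1 at 0.70. Short internal exons gave Trac 1.14, Trbc2 0.79 and Trbc1 0.43, none of them called. Trbc1 and Trbc2 are near-identical, and reads may be split between them in the estimate.

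The regulators of Lck and Zap70 were read as a list of 16 genes, of which 15 were matched. Between control and unstimulated cells 2 of 15 were called higher and 3 lower, beside 24.8% of all genes called, and the median of the list was 0.24, beside -0.05 over all genes. Cblb, a ubiquitin ligase that restrains receptor signalling, was at 8.85 and 8.38 FPKM in unstimulated cells, 34.2 and 25.9 in control cells and 27.6 and 35.7 in SMF-treated cells. It rose in both stimulated groups, by 1.68 (limma adjusted p = 0.0380) and 1.75 (adjusted p = 0.0184). Pag1, the membrane adaptor that brings the inhibitory kinase Csk to Lck, was at 13.1 and 11.3, 1.28 and 0.859, and 4.73 and 2.39 FPKM. It fell by 2.68 in control cells (adjusted p = 0.0326) and by 1.58 in SMF-treated cells (adjusted p = 0.0709). Sh2d2a, an adaptor that binds Lck, rose by 1.27 and 1.79 against unstimulated cells (adjusted p = 0.129 and 0.0333). These 3 genes were called in control cells on short internal exons too, at 2.17 for Cblb, -5.72 for Pag1 and 2.19 for Sh2d2a, and none of them in SMF-treated cells, at 1.25, -2.77 and 1.85.

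Other regulators of the list follow. Fyn, the second Src kinase of T cells, was at 74.6 and 48.7 FPKM in unstimulated cells, 21.3 and 25.6 FPKM in control cells and 83.7 and 62.5 FPKM in SMF-treated cells, low in control cells alone. It fell by 1.33 in control cells (adjusted p = 0.0654) and was higher by 1.59 in SMF-treated against control cells (adjusted p = 0.140). The ubiquitin ligase gene Cbl was at 16.9 and 17.2, 7.42 and 6.85, and 17.0 and 23.8 FPKM, the same pattern, with -1.15 in control against unstimulated cells (adjusted p = 0.107) and 1.38 in SMF-treated against control cells (adjusted p = 0.159). Sla, an adaptor that lowers receptor levels, was at 10.5 and 27.9, 18.8 and 43.6, and 139 and 104 FPKM, with 2.73 in SMF-treated against unstimulated cells (adjusted p = 0.0229) and 2.03 against control cells (adjusted p = 0.168). Cbl was also called on short internal exons in SMF-treated against control cells, at 2.80, whereas Fyn and Sla were at 0.59 and 1.80 and not called. The list as a whole had 3 genes called higher and 1 lower in SMF-treated against unstimulated cells (median 0.50, beside 37.2% of all genes called and a median of 0.27), and 3 higher and 0 lower against control cells (median 0.52, beside 18.2% and 0.32). The phosphatase gene Ptprc, which removes the inhibitory phosphate from Lck, was called in none of the 3 comparisons, at 337 and 352, 282 and 235, and 392 and 346 FPKM, nor was the kinase gene Csk, at 75.1 and 36.5, 23.2 and 36.6, and 65.3 and 47.8 FPKM.

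The LAT signalosome and the genes downstream of it numbered 21, with 20 matched. In control against unstimulated cells 1 was called higher and 3 lower, beside 24.8% of all genes called (median -0.63, beside -0.05 over all genes). Txk, a kinase of the Tec family, was at 12.97 and 11.4 FPKM in unstimulated cells, 1.59 and 0.617 in control cells and 3.33 and 3.10 in SMF-treated cells, and fell by 2.69 in control cells (limma adjusted p = 0.0303). Prkcq, protein kinase C theta, was at 37.2 and 39.2, 8.89 and 14.8, and 32.0 and 46.4 FPKM, with -1.65 in control against unstimulated cells (adjusted p = 0.0517). Malt1, a protease of the pathway to NF-kappaB, rose by 1.26 (adjusted p = 0.127). The SMF libraries of Prkcq lay on both sides of the unstimulated ones. Txk and Prkcq were called lower in control cells on short internal exons too, at -3.77 and -1.42, and Malt1 was at 0.89 and not called.

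In SMF-treated cells 4 genes of this list were called higher and 2 lower than in unstimulated cells (median 0.05, beside 0.27 over all genes, of which 37.2% were called), and 3 higher and 0 lower than in control cells (median 0.75, beside 0.32 over all genes, of which 18.2% were called). Lcp2, which encodes SLP-76, the partner of LAT, was at 15.9 and 17.3 FPKM in unstimulated cells, 28.8 and 38.2 FPKM in control cells and 88.2 and 94.96 FPKM in SMF-treated cells. Both SMF libraries were above the other 4, by 2.39 against unstimulated cells (adjusted p = 0.0061) and 1.44 against control cells (adjusted p = 0.137). Prkcq was 1.66 higher than in control cells (adjusted p = 0.141). Malt1 was called at 2.05, Txk at -1.65 and the adaptor gene Fyb at -1.09 against unstimulated cells. By short internal exons Malt1 was not called in control cells and was lower in SMF-treated than in control cells. Its rise over unstimulated cells was thus below the fold required on that measure. On short internal exons Lcp2 and Prkcq were at 0.64 and 0.54 in SMF-treated against control cells, and neither was called.

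Of the 9 receptor-associated surface proteins listed, 7 were tested. Cd5, a coreceptor that dampens receptor signals, was at 13.97 and 18.6 FPKM in unstimulated cells, 31.5 and 39.8 FPKM in control cells and 159 and 115 FPKM in SMF-treated cells. It rose by 1.09 in control cells (adjusted p = 0.0952) and by 2.995 in SMF-treated cells (adjusted p = 0.0046), and stood at 1.91 in SMF-treated against control cells (adjusted p = 0.136), with 0.77 and no call by short internal exons. Cd28, the costimulatory receptor that the second antibody binds, was at 11.7 and 13.4, 49.0 and 41.1, and 85.0 and 69.4 FPKM, and rose by 1.76 (adjusted p = 0.0246) and 2.53 (adjusted p = 0.0056). Cd6 rose by 2.03 (adjusted p = 0.0445) and 1.97 (adjusted p = 0.0267). Cd27, a costimulatory receptor of the tumour necrosis factor receptor family, was at 315 and 143, 97.3 and 91.3, and 75.5 and 72.8 FPKM, and fell by 1.16 (adjusted p = 0.122) and 1.51 (adjusted p = 0.0393). Cd6 and Cd27 were called in both stimulated groups on short internal exons too, at 2.67 and 1.47 for Cd6 and -1.41 and -1.31 for Cd27, and Cd28 in neither, at 0.92 and 1.08. In number, 3 genes of the list were called higher and 1 lower in control cells, and 3 higher and 2 lower in SMF-treated cells, of 7 tested, beside 24.8% and 37.2% of all genes called. Against control cells the SMF-treated cells had Cd5 alone called, 1 of 7 beside 18.2% of all genes. Each call of a pathway gene named above had the same direction after both rescalings, on unshared exons and on short internal exons, whereas several differences that were not called changed sign, such as that of Malt1 in SMF-treated against control cells (0.79, and -0.70 on short internal exons).

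**Figure D5:**
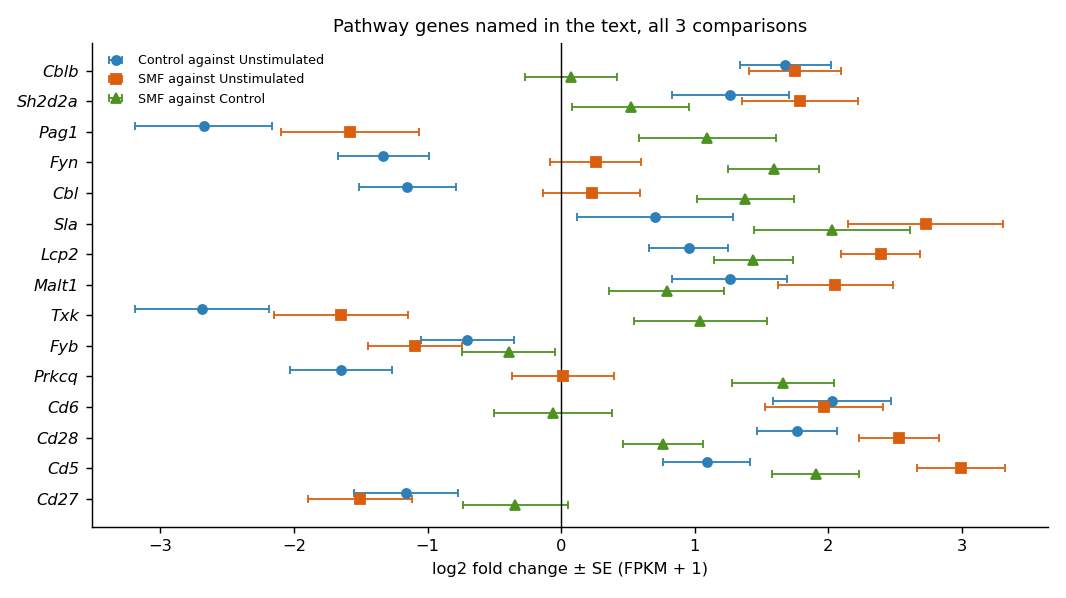
Fitted log2 fold changes of FPKM + 1 (horizontal axis) of the pathway genes named above from the lists, with 1 marker for each of the 3 comparisons. Cd5, Lcp2, Sla and Fyn lie above 0 in SMF-treated against control cells, and Pag1, Txk, Prkcq and Fyn lie below 0 in control against unstimulated cells.

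Over the 6 libraries, the members did not share a single profile. Pearson's r of a member with the mean standardised profile of the 9 was 0.921 for Lat, 0.920 for Cd8a, 0.872 for Cd3d, 0.863 for Cd3g and 0.813 for Cd3e, and 0.517 for Cd8b1, 0.275 for Lck, 0.196 for Zap70 and 0.163 for Cd247. Each member is part of the mean it was compared with, and the 6 libraries share their group, folder month and composition. These values are therefore a description. Among 9385 other genes whose mean reached 5 FPKM, 197 had an r of at least 0.9 with the mean profile. The closest were Dnajc3, Zfp281, Wdr45b, Exosc4 and Zfp110, with r of 0.989, 0.989, 0.988, 0.985 and 0.984.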

How the data were processed

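RNA of 6 libraries was sequenced with a stranded total RNA kit, 2 libraries for each of 3 groups taken from the sample labels. Per the file headers, the authors deposited 1 StringTie 1.3.5 file per library, restricted to the 137767 annotated transcripts of GENCODE M19 on GRCm38 and run in a stranded mode. Each file gives FPKM and TPM values, which the authors' software normalised for depth and transcript length, and the deposited coverage, in reads per base and not normalised. Trimmomatic 0.36 and HISAT2 are named in the submitters' processing notes. Another deposited FPKM table was left out, since its 3 columns of values could not be matched to a sample.

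Gene FPKM was summed over transcripts. Genes whose mean reached 1 FPKM were tested on log2(FPKM + 1) with limma 3.58.1 (R 4.3.3), all 3 groups together with a variance trend and 3 residual degrees of freedom. A call was a fold change of at least 2 with an unadjusted p of at most 0.05, the thresholds of the study, and Benjamini-Hochberg adjusted p-values cover all genes tested. Fold changes on this scale understate those of low genes. Ratios were compared by exact two-sided permutation tests over libraries. The code was tested on simulated data, and pandas 2.3.3, numpy 2.4.6 and matplotlib 3.10.9 under Python 3.11.15 were used for tables and figures. Transcript types came from GENCODE M21 and promoters from RefSeq.

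The members and the gene lists were chosen with earlier results of these data known. All members are named, and of each pathway list the up to 3 largest called rises and falls without overlap and with a mean of at least 5 FPKM, except a few genes that are not reported here. Without read counts, counting error could not be given, and a 0 is only a listing at 0. Depth ranged from 64.4 to 259 Mb of covered bases, and deeper libraries listed fewer genes at 0 within the unstimulated and within the control cells. Whether the stranded mode matches the kit was not settled, which bears on all genes and most on antisense and overlapping ones. Alternatives covered the pseudocount, filter, scaling, transcript types, exons, variance trend, samples fitted, replicate block and left-out libraries. By folder month, unstimulated and control libraries of the same number can be paired (r of 0.096 between their deviations from the group means). The SMF libraries cannot be paired with them in this way.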

Additional observations from a re-analysis of the deposited data

Results flagged for a closer look

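In 3 members the libraries of the stimulated groups lay on opposite sides of the unstimulated ones: both control libraries were below and both SMF libraries above both unstimulated ones, as in 2.09% of all genes tested. These were Cd8a, with a log2 fold change of 2.01 between SMF-treated and control cells, Cd3d, with 1.40, and Lat, with 0.96. Of the differences from unstimulated cells, that of Cd8a in control cells was the only one called. Folder month and field coincide in the SMF libraries and cannot be told apart. The difference between the directions was not tested, since both are measured from the same unstimulated libraries. On protein-coding transcripts the control libraries of Lat (27.3 and 40.5 FPKM) lay between the unstimulated ones (16.2 and 54.1). By short internal exons this pattern was not seen for Cd8a, whose SMF libraries (1994 and 1823) overlapped the unstimulated ones (1912 and 1999), nor for Lat, whose SMF libraries (561 and 466) were below the unstimulated ones (684 and 683). It remained for Cd3d, with 602 and 779 in control cells, 811 and 895 in unstimulated cells and 1222 and 1075 in SMF-treated cells.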

How the results depend on the processing

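In SMF-treated against control cells the call of Cd8a was kept in all 17 alternatives, with log2 fold changes from 1.47 to 2.38, and that of Cd3d in all but short internal exons (0.74). Of the 9 members 4 were called by gene TPM and by protein-coding transcripts only, where 17.9% and 20.2% of all genes were called, and 2 to 4 without 1 library each, beside 9.12% to 22.5%. All genes called numbered 589 by short internal exons, where fewer genes could be tested, and 1367 (without SMF replicate 1) to 3379 (without control replicate 2) with 1 library left out, beside 2725; pathway genes called numbered 3 by short internal exons, beside 7. Signs turned for Cd3e, Cd8b1 and Lck after the shift to the same median (-0.14, -0.098 and -0.18) and after rescaling to protein-coding genes (-0.13, -0.087 and -0.17), for Cd247 on unshared exons (0.93), and for Cd3e, Cd3g, Cd8b1 and Zap70 by short internal exons (-1.02, -0.035, -1.03 and -0.66). With 1 library left out the values crossed 0 for Cd3e (-0.048 without SMF replicate 1, 0.45 without SMF replicate 2), Cd8b1 (-0.39 without control replicate 1, 0.88 without control replicate 2) and Cd247 (-0.82 and 0.073 without the same libraries).

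In control against unstimulated cells 1 member was called after the median shift, on protein-coding transcripts only, without the variance trend and with only the 2 groups fitted, beside 20.8% to 25.1% of all genes, and 0 to 2 without 1 library each, beside 21.2% to 24.4%. All genes called numbered 2358 on protein-coding transcripts and 1784 by short internal exons, beside 3724. Signs turned for Zap70 and Lat on protein-coding transcripts (-1.31 and 0.15), and for Zap70 by short internal exons (-0.029). With 1 library left out, Cd3g ran from -0.54 (without control replicate 2) to 0.16 (without control replicate 1) and Cd247 from -0.56 to 0.33 without the same libraries.

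In SMF-treated against unstimulated cells 2 members were called after the median shift, with only the 2 groups fitted, with the replicate block and on unshared exons, Cd8b1 joining Zap70, beside 36.0% to 37.2% of all genes, and 3 by short internal exons, beside 22.8%; 1 was called in each fit without 1 library, beside 26.0% to 33.4%. All genes called numbered 2242 by short internal exons, beside 5577, and rescaling to protein-coding genes gave 2347 higher and 2978 lower, beside 3351 and 2226. Signs turned for Lat after that rescaling (-0.048), for Cd3e and Lck on protein-coding transcripts (0.010 and 0.44), for Cd247 and Lck on unshared exons (0.16 and 0.053) and for Cd3g, Cd8a, Zap70 and Lat by short internal exons (-0.27, -0.036, -0.69 and -0.42). Cd3e ran from -0.29 (without SMF replicate 1) to 0.21 (without SMF replicate 2).

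The causes were not tested. The replicate block over all 3 groups changed the call of no other member, although the numbers of the SMF libraries share nothing known with the others (r of 0.030 and 0.021 between deviations from the group means). Unstimulated and control libraries share folder months. With the block in these libraries alone, Cd8a and Cd8b1 were again the 2 members called, beside 26.4% of all genes. This fit was chosen after seeing the data. A group with 1 library left out takes its spread from the other groups. Depth limits the low genes: 9.17% to 19.7% of the genes tested were listed at 0 in a library.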

Other observations

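Other genes of the activation list differed in the same libraries. Mki67, a gene of dividing cells, was at 10.5 and 7.64 FPKM in unstimulated cells, 49.3 and 60.0 in control cells and 73.8 and 86.3 in SMF-treated cells. Cd44, an adhesion receptor of activated cells, was at 6.11 and 6.62, 18.3 and 23.4, and 45.0 and 53.5 FPKM, and was called in SMF-treated against control cells, at 1.21 (limma with Benjamini-Hochberg adjusted p = 0.167), but not after the shift to the same median (0.86). Gzmb was the other call of this list in that comparison, at 1.03 (limma adjusted p = 0.179), just above the fold required. These were 2 of 8 genes, both higher, beside 12.5% of all genes called higher. Il7r, the interleukin 7 receptor, was at 59.5 and 56.9, 26.3 and 16.5, and 7.72 and 15.9 FPKM.

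Genes often used as a reference differed between libraries of the same group too. Actb was at 954 and 962 FPKM in unstimulated cells, 463 and 1208 in control cells and 1348 and 974 in SMF-treated cells. B2m, the light chain of the class I molecules that CD8 binds, was at 315 and 446, 221 and 409, and 355 and 684 FPKM. Gapdh, of glycolysis, was at 9.84 and 18.3, 71.7 and 33.6, and 50.4 and 58.3 FPKM, and was called higher in both stimulated groups than in unstimulated cells.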
